A study of Rattus norvegicus with 34 samples.

Results

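Collagens and the proteins that bind them form the scaffold of the liver, and 10 genes of this scaffold were followed in the livers of ageing male rats. They are Col1a1, Col1a2, Col3a1, Col4a1, Col4a2, Col4a5, Timp1, Sparc, Lum and Dcn, which hepatic stellate cells are known to express. The genes were taken by symbol from the array annotation, which assigns 14 probe sets to them, and each gene was read from the probe set with the highest mean signal in the strain. They are 10 of 11943 genes measured in F344 rats and 10 of 11984 in Brown Norway rats. Of the 10, 9 of 9210 genes tested in F344 rats and 10 of 8586 in Brown Norway rats passed the filter on low signals. Lum was left out of the tests in F344 rats because its probe set exceeded the floor of 32 signal units on 1 of 16 arrays.

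The study measured 34 livers of 2 inbred strains on Affymetrix rat arrays, with 1 array for each animal, to profile genes of foreign compound metabolism over age. Brown Norway rats, kept in individual housing, were dosed by gavage with toluene, an aromatic solvent, at 1 g/kg in corn oil and killed 4 h later, at 4, 12 or 24 months of age, with 3 rats per age. Their controls, also 3 rats at each of these ages, carry no treatment in the labels. Whether they received corn oil is not stated, so effects of toluene cannot be told apart from those of corn oil and gavage. F344 rats were undosed and were 6, 11, 18 or 24 months old, with 4 rats per age, and were held by the supplier until 1 week before necropsy. RNA came from whole liver tissue, so fewer cells of a type and less RNA per cell cannot be told apart.

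Stellate cells lie between the sinusoidal endothelium and the hepatocytes. At rest they store vitamin A and make a little basement membrane and fibrillar collagen, and after injury they become the main source of scar collagen as myofibroblasts. Type I and type III collagen build fibrils, the small proteoglycans lumican (Lum) and decorin (Dcn) sit on those fibrils, and type IV collagen builds the sheet-like network of basement membranes. Portal fibroblasts, endothelial cells and cholangiocytes also express several of these genes.

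Of the 10 genes, 7 have an entry in the RefSeq promoter table for the rat genome build GRCr8. The stretches before the start sites of the type IV collagen genes are shown because Col4a5 was called lower in old F344 rats. The pair Col4a1 and Col4a2 was not called, and a difference between the genes was not tested. Col4a1 and Col4a2 lie head to head on opposite strands, and 76 bases separate their starts at chr16:84885521-84885596, given here on the plus strand, on which Col4a1 lies. The 250 bases before the start of Col4a5 are at chrX:109907109-109907358, on the plus strand, which is that of the gene. Capitals mark GGGCGG on either strand.
Col4a2 to Col4a1: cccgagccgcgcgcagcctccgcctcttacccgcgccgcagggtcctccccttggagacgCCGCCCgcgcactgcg
Col4a5 upstream: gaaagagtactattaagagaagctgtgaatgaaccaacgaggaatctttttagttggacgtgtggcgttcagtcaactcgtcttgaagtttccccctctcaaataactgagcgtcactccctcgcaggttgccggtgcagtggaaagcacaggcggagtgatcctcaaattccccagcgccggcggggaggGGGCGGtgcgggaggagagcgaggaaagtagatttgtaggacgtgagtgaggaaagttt
The stretch between Col4a2 and Col4a1 has a GC content of 78.9%, and that before Col4a5 has 52.8%. GGGCGG occurs once in each, 16 bases before the start of Col4a1 and 59 bases before that of Col4a5. Over 33469 promoters of the table, 18.1% hold GGGCGG on either strand within the same length of 76 bases and 30.5% within 250 bases. CCAAT was not present on either strand in these windows, and 13% of promoters hold it within 76 and 34% within 250 bases. TATAAA was not present either, and 4.61% and 12.9% of promoters hold it within these lengths. These are matches of letters in a window and no measure of binding.

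The median signal of an array lay between 44.8 and 46.9 for F344 and between 35.5 and 38.2 for Brown Norway livers, and albumin lay between 7311 and 8946 on all 34 arrays. The signal ratio of 3' over 5' GAPDH probe sets, which rises as RNA degrades, was 1.31 to 7.33 in F344 rats and 0.774 to 0.944 in Brown Norway rats. It exceeded 2.5 on 5 F344 arrays, which were rats 1 and 3 of 6 months, rats 1 and 2 of 11 months and rat 4 of 18 months. Skeletal muscle genes stood out on rat 4 of 18 months, where their summed signal was 2283 against at most 151 on the other F344 arrays.

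Fibrillar collagen signals were highest in F344 rats of 18 months. Col3a1, the single chain of type III collagen, had signals of 540, 437, 373 and 700 at 6 months, 539, 643, 563 and 682 at 11 months, 999, 897, 998 and 625 at 18 months and 940, 419, 857 and 605 at 24 months. The 3 highest values at 18 months lay above the values of 6 and 11 months, and the remaining rat of 18 months lay among them. Its mean was 880 ± 176 at 18 months against 513 ± 143 at 6 months (SD, n = 4 each), with a log2 fold change of 0.80 (SE 0.24), and limma gave an adjusted p of 0.142. Col1a1 and Col1a2 encode the chains of type I collagen. Col1a1 had signals of 104, 81.3, 81.1 and 44.8 at 18 months against 46.1, 40.2, 13.7 and 43.2 at 6 months. Col1a2 had 79.3, 87.0, 64.7 and 48.3 at 18 months against 27.7, 42.9, 29.1 and 53.9 at 6 months. In each of these genes 3 rats of 18 months lay above all rats of 6 months and rat 4 lay within their range, so the groups overlapped. The log2 fold changes were 0.90 (SE 0.26, adjusted p = 0.112) for Col1a1 and 0.80 (SE 0.27, adjusted p = 0.200) for Col1a2.

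At 24 months the fibrillar collagens were spread widely among F344 rats. Col1a1 had signals of 47.0, 47.3, 84.2 and 36.9, Col1a2 85.3, 35.2, 56.5 and 43.6, and their values overlapped those of every other age. The log2 fold changes of 24 over 6 months were 0.36 for Col1a1, 0.41 for Col1a2 and 0.43 for Col3a1, with adjusted p-values of 0.337 to 0.479 in limma. For 24 over 18 months they were -0.54, -0.39 and -0.36, and none passed. These comparisons share their 24-month or 6-month rats with one another.

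**Figure D1:**
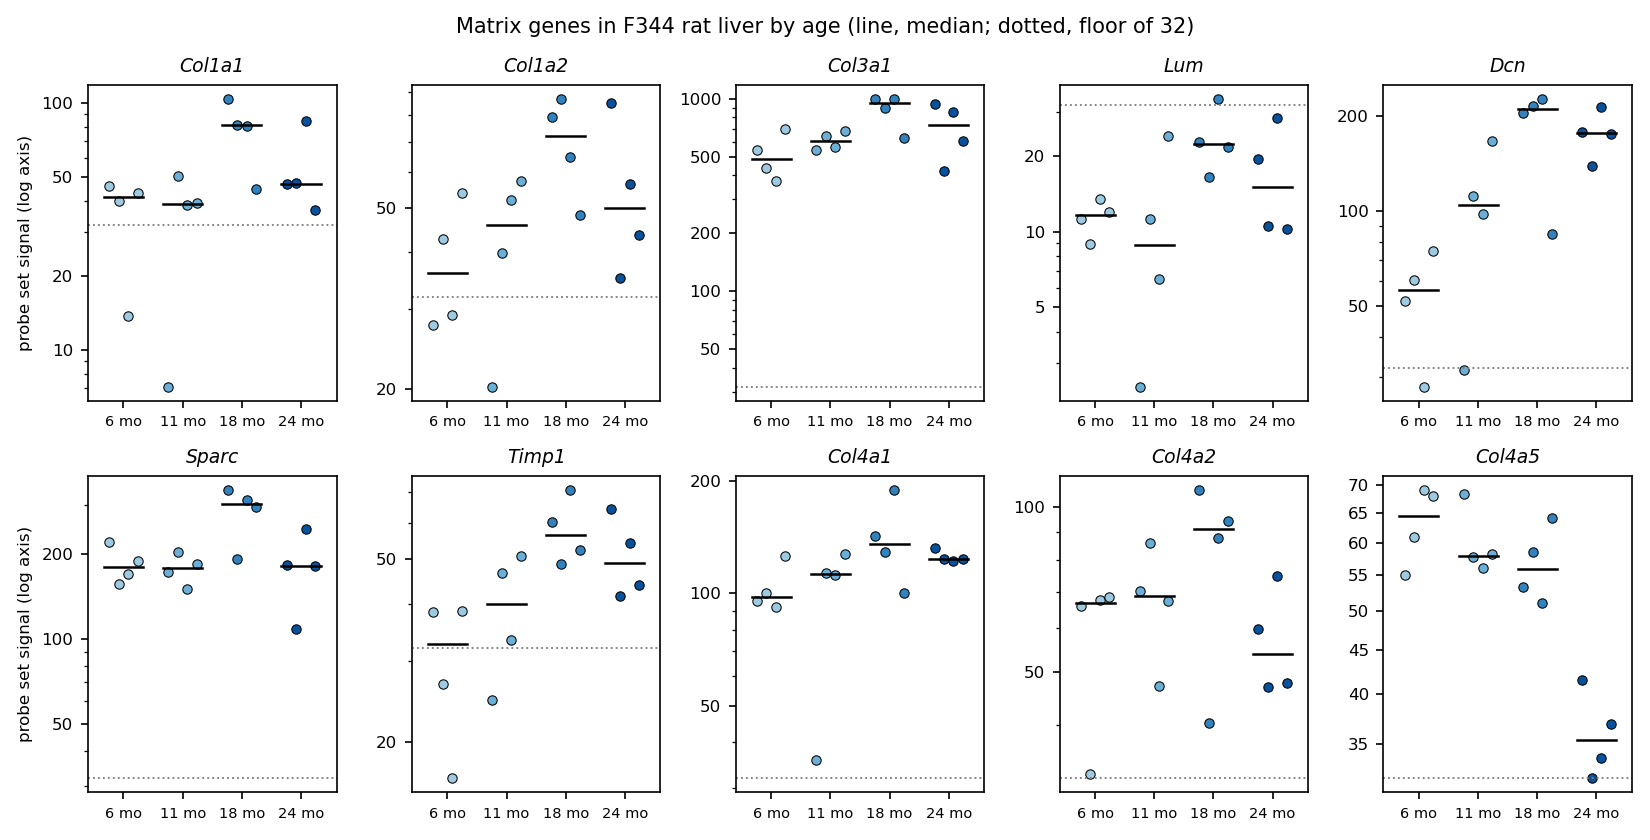
Probe set signal on a log axis for each of the 10 genes in F344 rat liver at 6, 11, 18 and 24 months, with a point for each of 4 rats per age, a line at the median and a dotted line at the floor of 32. The median is highest at 18 months for 8 of the 9 tested genes, while Col4a5 is highest at 6 months and lowest at 24 months, and Lum lies below the floor on 15 of 16 arrays.

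Decorin, a proteoglycan that binds collagen fibrils and TGF-beta, rose with age in F344 rats. Dcn had signals of 52.1, 60.8, 27.9 and 74.7 at 6 months, 31.4, 112, 98.0 and 167 at 11 months, 204, 216, 226 and 84.7 at 18 months and 178, 139, 213 and 175 at 24 months. Every rat of 18 or 24 months lay above every rat of 6 months. At 24 months the mean was 176 ± 30.0 against 53.9 ± 19.7 at 6 months (SD, n = 4 each), 3.32-fold higher, with a log2 fold change of 1.73 (SE 0.42, adjusted p = 0.0181, limma). At 18 months the log2 fold change over 6 months was 1.70 (SE 0.42) and the adjusted p was 0.0611. The call at 24 months was lost without rat 3 of 6 months (log2 fold change 1.49, adjusted p = 0.0645) and without rat 1 of 24 months (1.72, adjusted p = 0.0504). With the GAPDH ratio as a covariate the 24-month change was 1.38 (adjusted p = 0.00613), and without the 5 arrays of high ratio it was 1.37 (adjusted p = 0.00563). Lumican, the other fibril-bound proteoglycan, had signals of 2.42 to 33.8 over the 16 F344 arrays, almost all below the floor, where values carry no order.

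Timp1, the secreted inhibitor of matrix metalloproteinases, also had its lowest signals in young F344 rats. Its values were 38.4, 26.8, 16.7 and 38.5 at 6 months, 24.7, 46.6, 33.3 and 50.8 at 11 months, 60.3, 48.8, 70.5 and 52.3 at 18 months and 64.3, 41.5, 54.0 and 44.0 at 24 months. The rats of 18 and of 24 months all lay above those of 6 months, but 2 of the 4 rats of 6 months were below the floor. The log2 fold change over 6 months was 0.71 (SE 0.18, adjusted p = 0.0645) at 18 months and 0.52 (SE 0.18, adjusted p = 0.0932) at 24 months, and neither passed. Sparc, a collagen-binding matricellular protein, had signals of 337, 192, 312 and 294 at 18 months against 222, 156, 170 and 189 at 6 months. Here 3 of the 4 rats of 18 months lay above all rats of 6 months (log2 fold change 0.60, SE 0.22, adjusted p = 0.240). At 24 months Sparc had 182, 109, 246 and 182, and its log2 fold change was -0.08 over 6 months and -0.69 over 18 months (SE 0.22, adjusted p = 0.150).

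Among the chains of type IV collagen only Col4a5 was called in old F344 rats. Col4a5, a chain that assembles with other minor chains and is best known from the basement membrane of the kidney glomerulus, had signals of 55.1, 61.0, 69.0 and 67.9 at 6 months, 68.3, 57.7, 56.0 and 58.1 at 11 months, 53.3, 58.6, 51.0 and 64.0 at 18 months and 41.5, 31.98, 33.8 and 37.0 at 24 months. Each rat of 24 months lay below each of the 12 younger rats, while the 3 younger ages overlapped. Col4a5 fell at 24 months to 36.1 ± 4.18, against 63.3 ± 6.49 at 6 months (SD, n = 4 each), with a log2 fold change of -0.81 (SE 0.12, adjusted p = 0.000492). It was also lower at 24 than at 11 months (log2 fold change -0.74, adjusted p = 0.00169) and than at 18 months (-0.66, adjusted p = 0.00695), and these comparisons share the 24-month rats. These calls held in each of the 19 alternative settings in which Col4a5 was tested, with adjusted p-values of at most 0.00516, 0.0190 and 0.0493 against 6, 11 and 18 months. A single rat of 24 months lay just below the floor and entered the test at the floor.

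Col4a1 and Col4a2, whose chains form the common network of basement membranes and whose genes share the short stretch printed above, were not called at 24 months. Col4a1 had signals of 132, 124, 122 and 124 at 24 months against 95.2, 100, 91.7 and 126 at 6 months (log2 fold change 0.29, SE 0.30, adjusted p = 0.647). Col4a2 had 59.8, 46.9, 74.9 and 47.8 at 24 months against 65.9, 32.5, 67.5 and 68.4 at 6 months (0.00, SE 0.30, adjusted p = 0.998). The groups overlapped in both genes, and the 95% intervals of the difference were -0.35 to 0.93 for Col4a1 and -0.63 to 0.64 for Col4a2 on the log2 scale. The point estimate of -0.81 for Col4a5 lay outside both intervals, but it has an error of its own (SE 0.12). A difference between the genes themselves was not tested.

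Over the 9 tested genes, limma at an adjusted p under 0.05 called none higher or lower at 18 against 6 months, where 1.07% of all genes were called. At an unadjusted p under 0.05 it picked 6 of 9, against 11.8% of all genes, and 8 of 9 had a positive log2 fold change. The median log2 fold change was 0.71 for the 9 genes and -0.00 for all genes. Groups did not overlap in 2 of 9, Dcn and Timp1, both higher, as in 4.25% of all genes. At 24 against 6 months Dcn was called higher and Col4a5 lower, 2 of 9 genes against 7.4% of all genes, and 3 of 9 had an unadjusted p under 0.05, against 20.4%. The median was 0.36 for the 9 genes and -0.01 for all. Groups did not overlap in Dcn and Timp1, which were higher (8.81% of all genes), and in Col4a5, which was lower (6.54%).

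Col4a5 alone was called, and alone did not overlap, at 24 against 11 and at 24 against 18 months. At 24 against 11 months 4.93% of all genes were called and 5.72% were lower without overlap, and 2 of 9 had an unadjusted p under 0.05, against 20.2%. At 24 against 18 months these shares were 1.78% and 3.64%, with 2 of 9 against 11.9% of all genes at an unadjusted p under 0.05. None of the 9 was called at 18 against 11 months (0.293% of all genes called), where 7 had an unadjusted p under 0.05 (11.1% of all). None was called at 11 against 6 months either (0% called), where 0 had an unadjusted p under 0.05 (3.89% of all).

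The counts at 18 months depended on rat 4 of that age, the array with the high skeletal muscle genes and a GAPDH ratio of 5.31. Without it 2 genes were called at 18 against 6 months, Dcn (log2 fold change 2.04, adjusted p = 0.0167) and Col1a1 (1.14, adjusted p = 0.0191). Col3a1 had 0.95 (adjusted p = 0.0571), and over all genes 206 of 9156 were called, against 99 of 9210 with all arrays. With arrays weighted by quality 5 genes were called higher, which were Col1a1, Col3a1, Timp1, Sparc and Dcn, with adjusted p-values of 0.00175 to 0.0489. Over all genes 428 of 9210 were called with these weights. With the GAPDH ratio as a covariate, Dcn alone was called (1.54, adjusted p = 0.00967). Other settings weakened the rise. Without rat 3 of 6 months the adjusted p-values were 0.165 for Dcn (log2 fold change 1.46), 0.248 for Col1a1 (0.79) and 0.300 for Col3a1 (0.66). Among all alternatives for 18 against 6 months, Dcn was called in 4 of 21, Col1a1 in 2 of 19 and Timp1 in 1 of 19. Col3a1 and Sparc were each called in 1 of 21.

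**Figure D2:**
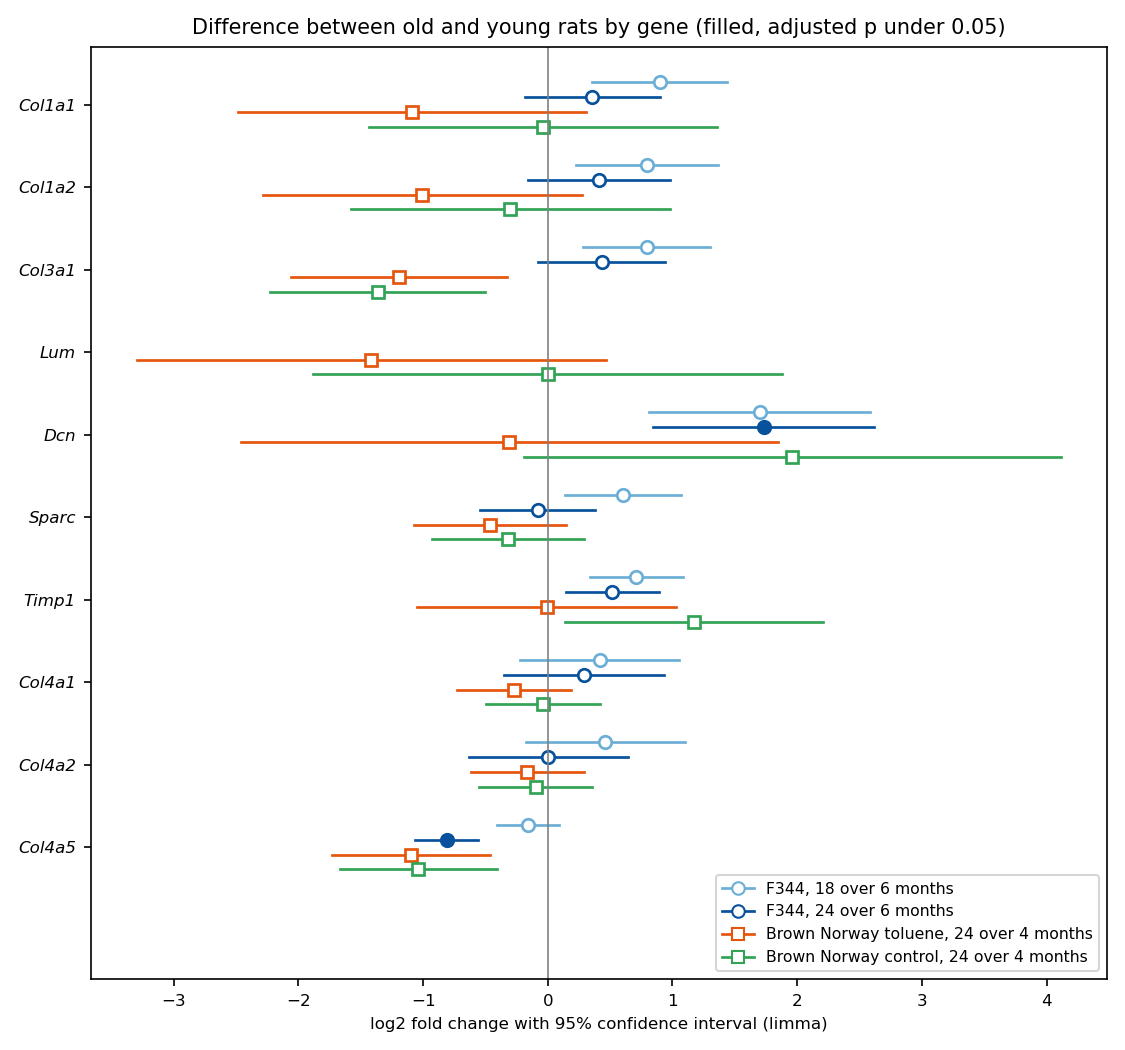
Log2 fold change of old over young rats for each gene, with 95% confidence intervals from limma, for F344 rats of 18 and 24 over 6 months and for toluene-dosed and control Brown Norway rats of 24 over 4 months. Filled symbols mark an adjusted p under 0.05, which Dcn and Col4a5 reach in F344 rats of 24 months, and in Brown Norway rats no symbol is filled.

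In Brown Norway rats, 2 arrays of toluene-dosed rats carried high fibrillar collagen, Lum and Dcn signals together with muscle genes. On rat 1 of the 4-month toluene group 7 of the 10 genes had the highest signal of the 18 arrays, and on rat 2 of the 12-month toluene group 6 had the second highest and Col4a2 the highest. Among all genes of the first of these arrays the greatest excess over the median of the other arrays was that of Tnni2, a fast skeletal muscle troponin, at 89.4-fold. On the second it was that of Myh11, the smooth muscle myosin heavy chain, at 13.1-fold. Tnni2 had a signal of 2861 and 164 on these arrays against 2.03 to 34.1 on the other 16, and Myh11 had 97.0 and 419 against 13.5 to 48.7. Summed over skeletal muscle genes, a list added after the arrays had been seen, the signal was 21396 and 1736, and the median of the 18 arrays was 142. Over smooth muscle genes, some of which activated stellate cells also express, it was 1333 and 3413, with a median of 434. The part of muscle tissue in the collagen signals of these livers was not tested, and values without these arrays stand beside several of the Brown Norway results.

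**Figure D3:**
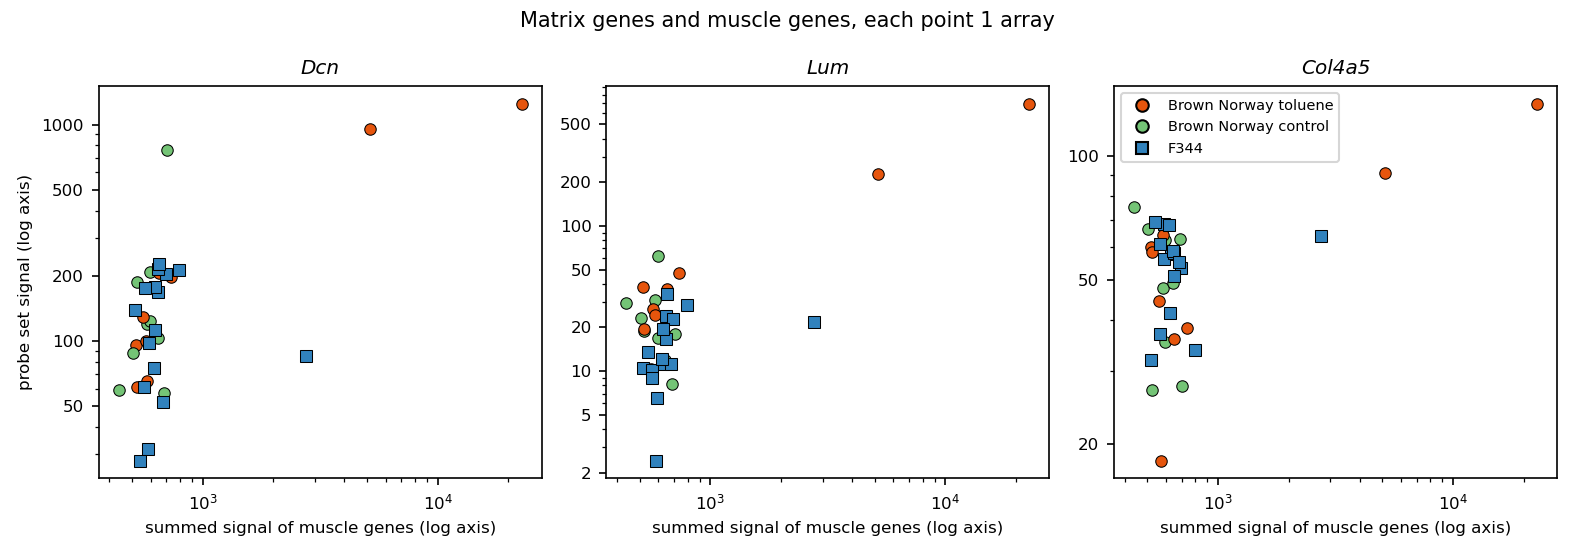
Probe set signal of Dcn, Lum and Col4a5 against the summed signal of skeletal and smooth muscle genes, both on log axes, with a point for each of the 34 arrays. The 2 toluene-dosed Brown Norway rats at the right have the highest Lum and Col4a5 signals of their strain and the highest Dcn signals, while the F344 array to their left, rat 4 of 18 months, has a Dcn signal of 84.7.

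Toluene left no gene of the set called at any age. At 4 months Dcn had signals of 1246, 61.0 and 65.2 in toluene rats against 57.1, 88.0 and 59.3 in controls. Lum had 694, 19.5 and 24.4 against 8.20, 23.4 and 29.5, Col1a1 307, 20.3 and 25.6 against 27.6, 26.6 and 34.5, and Col3a1 1981, 703 and 912 against 980, 732 and 710. In each of them 1 toluene rat stood far above and the others lay within or below the range of the controls. At 12 months Dcn had 95.1, 953 and 197 in toluene rats against 120, 209 and 103 in controls, and Col1a2 had 27.5, 126 and 18.7 against 40.6, 37.1 and 39.5. Again 1 dosed rat, rat 2, was high and the rest were not.

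With all arrays the log2 fold changes of toluene over control at 4 months were 1.48 (SE 0.88) for Lum, 1.35 (SE 1.01) for Dcn and 1.05 (SE 0.66) for Col1a1. Without the 2 arrays, a setting chosen after seeing the data, the values were 0.00 for Lum, -0.08 (SE 0.60) for Dcn and -0.04 (SE 0.11) for Col1a1. At 12 months they were 0.93 (SE 1.01) for Dcn, 0.90 (SE 0.88) for Lum, 0.56 (SE 0.66) for Col1a1 and -0.28 (SE 0.41) for Col3a1 with all arrays. Without the 2 arrays they were -0.01 (SE 0.60) for Dcn, 0.09 (SE 0.23) for Lum, -0.10 (SE 0.11) for Col1a1 and -0.69 (SE 0.32, adjusted p = 0.802) for Col3a1. Lum and Col1a1 lay at or near the floor on most of the arrays that remained, so their values carry little information. By limma 0 of 10 genes were called at 4, 12 and 24 months, and 0 had an unadjusted p under 0.05 at any age. Over all genes 0.0233%, 0.0349% and 0.0582% were called at these ages, and 3.14%, 4.61% and 11.1% had an unadjusted p under 0.05. The gene of smallest p was Timp1 at 24 months, with 36.2, 73.8 and 44.3 in toluene rats against 233, 76.4 and 56.9 in controls (log2 fold change -1.03, SE 0.49, unadjusted p = 0.0504, adjusted p = 0.451). That difference turned on control rat 1, without which it was -0.42 (SE 0.43). The effect of toluene was called as different between ages for 0 of 10 genes in each of 3 comparisons of ages, with 0 at an unadjusted p under 0.05, where 0%, 0.0116% and 0.0349% of all genes were called and 3.14%, 4.89% and 11.4% had such a p.

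**Figure D4:**
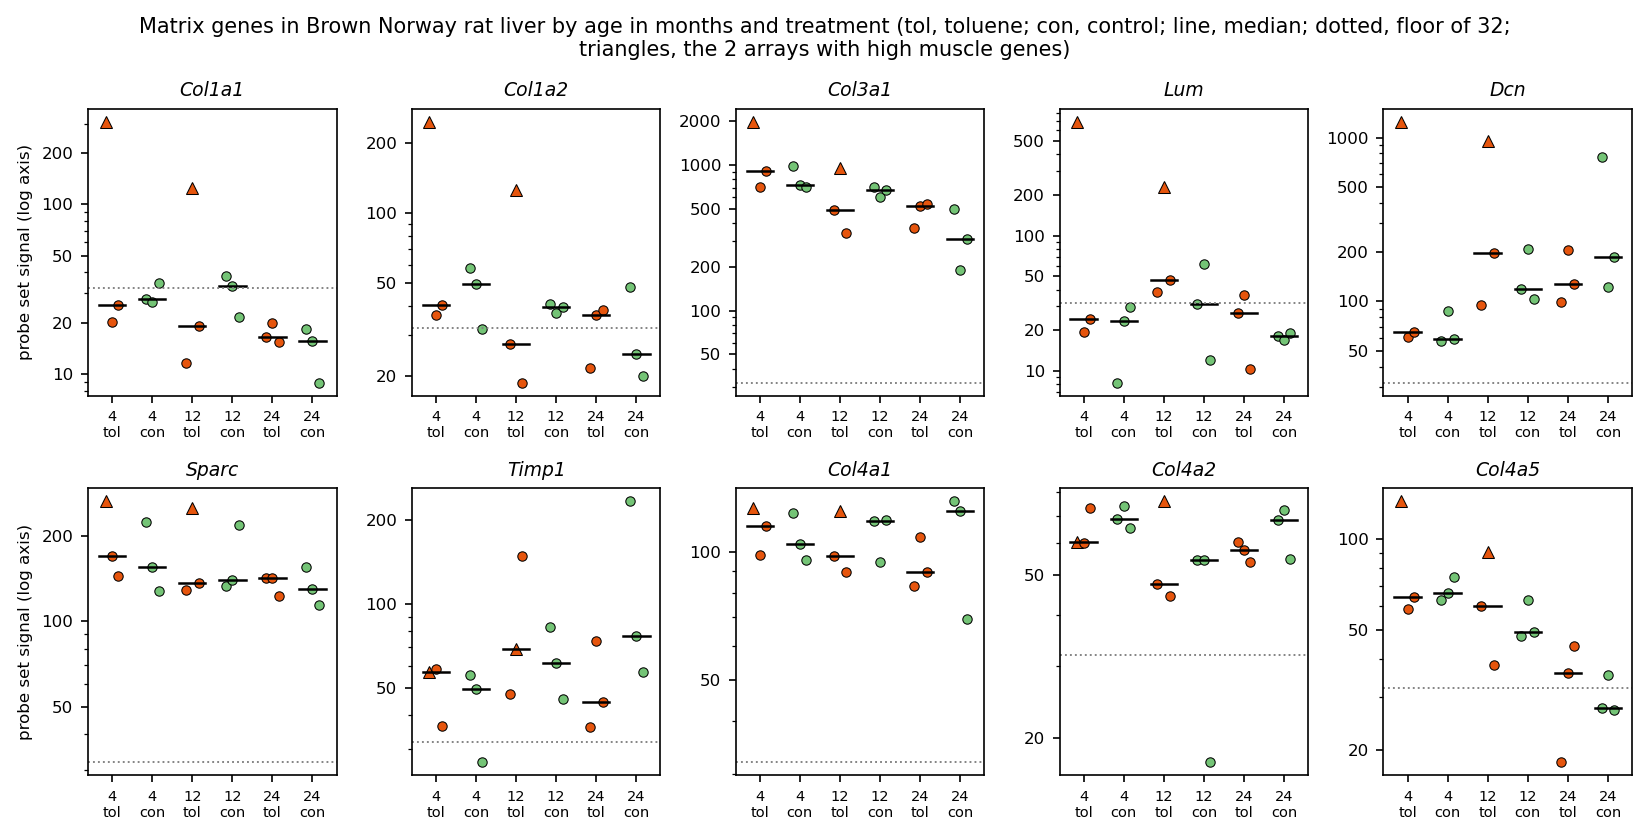
Probe set signal on a log axis for each gene in Brown Norway rat liver, by age in months, with toluene (tol) left of control (con) at each age, a point for each of 3 rats per group, a line at the median and a dotted line at the floor of 32. Triangles mark the 2 arrays with high muscle genes, which carry the highest signals of Col1a1, Col1a2, Lum, Dcn, Sparc and Col4a5, and Col3a1 and Col4a5 are lower at 24 than at 4 months in both treatments.

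Old Brown Norway rats had lower Col3a1 and Col4a5 signals than young ones, although neither passed the test in either treatment group. Col3a1 had 372, 524 and 544 in toluene rats of 24 months against 1981, 703 and 912 at 4 months. In controls it had 502, 191 and 312 at 24 months against 980, 732 and 710 at 4 months. The 6 rats of 24 months lay between 191 and 544, below the 6 rats of 4 months at 703 to 1981. How many of all genes separate in this way over both treatments was not counted. The log2 fold change was -1.19 (SE 0.41, adjusted p = 0.608) in toluene rats and -1.36 (SE 0.41, adjusted p = 0.167) in controls. Without the 2 arrays it was -0.76 in toluene rats (adjusted p = 1). In controls it stayed at -1.36 without them, with an SE of 0.29 (adjusted p = 0.0740, limma), and did not pass.

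Col4a5 had 18.2, 35.98 and 44.3 in toluene rats of 24 months against 134, 58.5 and 64.1 at 4 months. In controls it had 27.6, 35.3 and 27.1 at 24 months against 62.9, 66.3 and 74.9 at 4 months, with 12-month controls at 47.6, 62.6 and 49.1. Here too the 6 old rats, at 18.2 to 44.3, lay below the 6 young ones, at 58.5 to 134, and 3 of the old rats were below the floor. No share of all genes stands beside this separation over both treatments. The log2 fold change was -1.10 (SE 0.30, adjusted p = 0.298) in toluene rats and -1.04 (SE 0.30, adjusted p = 0.145) in controls. Without the 2 arrays it was -0.72 (adjusted p = 0.435) in toluene rats, and in controls it stayed at -1.04 with an SE of 0.18 and passed (adjusted p = 0.0316). Taken over control and toluene rats together, which was also added after seeing the data, Col4a5 passed with -1.07 (adjusted p = 0.0280) and, without the 2 arrays, with -0.88 (adjusted p = 0.00762). Col3a1 had -1.28 (adjusted p = 0.0508) and -1.06 (adjusted p = 0.0501) in these settings.

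Dcn and Timp1 were higher in 24-month than in 4-month Brown Norway controls, though not by the test. Dcn had 762, 123 and 187 at 24 months against 57.1, 88.0 and 59.3 at 4 months, and Timp1 had 233, 76.4 and 56.9 against 55.6, 49.6 and 27.0. The groups did not overlap, and rat 1 of 24 months was far above the others in both. The log2 fold changes were 1.96 (SE 1.01, adjusted p = 0.487) for Dcn and 1.17 (SE 0.49, adjusted p = 0.358) for Timp1. Without rat 1 they were 1.18 (adjusted p = 0.931) and 0.57 (adjusted p = 0.899). On that array Lcn2, a protein induced in inflamed liver, was 66.4-fold and Cd74, the invariant chain of class II presentation, 7.66-fold above the median of the other arrays. In toluene rats Dcn had 99.5, 205 and 128.2 at 24 months against 1246, 61.0 and 65.2 at 4 months. Its log2 fold change was -0.31 with all arrays and 1.13 (SE 0.60) without the 2 arrays. That of Timp1 in toluene rats was -0.01 (SE 0.49) with all arrays and 0.09 (SE 0.57) without the 2 arrays. Over both treatments Timp1 overlapped, with 36.2 to 233 at 24 and 27.0 to 58.5 at 4 months. The SE of 1.01 for Dcn in controls includes the spread of the 2 muscle-rich arrays, since all Brown Norway groups share a fit. For Dcn in toluene against control rats of 24 months the SE was 1.01 with these arrays and 0.54 without them.

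Of the remaining genes none passed the test in Brown Norway rats, and most overlapped between ages. Sparc lay between 114 and 155 in the 6 rats of 24 months and between 127 and 265 in the 6 rats of 4 months. Col4a1 lay between 69.4 and 131 at 24 months and between 95.6 and 126 at 4 months. Col4a2 lay between 53.8 and 72.2 at 24 months and between 59.9 and 73.8 at 4 months, and at 12 months control rat 3 had 17.5. Col4a2 had its smallest p at 12 against 4 months in controls, with 54.5, 54.4 and 17.5 against 68.5, 73.8 and 65.4 (log2 fold change -0.60, SE 0.21, adjusted p = 0.960). Col1a1 was above the floor on 5 of 18 arrays and Lum on 6 of 18, so neither carries a firm statement on age.

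By limma 0 of 10 genes were called in controls at 24 against 4 months, where 0.245% of all genes were called, and 3 had an unadjusted p under 0.05 (11.6% of all). Groups did not overlap in Dcn and Timp1, which were higher, and in Col3a1 and Col4a5, which were lower, against 6.72% and 6.03% of all genes. At 12 against 4 months 0 of 10 were called in controls (0% of all genes called) and 1 had an unadjusted p under 0.05 (3.9% of all). Groups did not overlap there in Dcn, which was higher (4.16% of all genes), and in Col3a1, Col4a2 and Col4a5, which were lower (3.28%). At 24 against 12 months 0 of 10 were called (0.0233% called) and 3 had such a p (14.5% of all), with Col4a2 higher (8.92%) and Col3a1 and Col4a5 lower (7.99%) without overlap.

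In toluene rats 0 of 10 genes were called at 24 against 4 months (0.268% called), where 2 had an unadjusted p under 0.05 (5.5% of all) and the log2 fold changes of all 10 were negative. Without the 2 muscle-rich arrays 6 were negative, Col1a1 was at 0 and 3 were positive, which were Dcn (1.13), Timp1 (0.09) and Lum (0.06). Groups did not overlap in Col3a1, Col4a5 and Sparc, all lower, against 6.8% of all genes. At 12 against 4 months 0 were called (0% called) and 1 had an unadjusted p under 0.05 (2.46% of all). At 24 against 12 months 0 were called (0.0932% called), 1 had such a p (3.25% of all), and Lum alone did not overlap, being lower (3.03%), with 26.9, 36.5 and 10.3 at 24 against 38.1, 228 and 47.4 at 12 months. These age comparisons share groups with one another.

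Whether age acted differently in the strains was tested on the 7 genes read from the same probe set in each, as the change from 6 to 24 months in F344 rats minus that from 4 to 24 months in Brown Norway controls. Col3a1 differed most, by 1.80 on the log2 scale (SE 0.47, adjusted p = 0.0789), being 0.43 in F344 and -1.36 in Brown Norway rats. None of the 7 was called, 1 had an unadjusted p under 0.05, and 0.477% of all genes were called, with 8.65% at an unadjusted p under 0.05. The Brown Norway errors came from a fit over all groups of the strain, with the 2 muscle-rich toluene arrays. For Col3a1 in controls the SE was 0.41 with these arrays and 0.29 without them. The strain difference was not tested without them. Col3a1 passed in 2 of 22 alternatives, without Brown Norway control rat 1 of 24 months (adjusted p = 0.0284) and without F344 rat 2 of 24 months (adjusted p = 0.0395). Col4a5 differed by 0.23 (SE 0.32, 95% interval -0.43 to 0.88) and Dcn by -0.23 (SE 1.10). The young rats were 6 months old in 1 strain and 4 in the other.

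Further lists of matrix genes and cell markers were read in F344 rats. Over all genes 0.912% were called higher and 0.163% lower at 18 against 6 months. At 24 against 6 months these shares were 4.44% and 2.96%. Lists this short cannot show fewer calls than over all genes, and summed signals have no such share beside them. Of 10 further collagen genes 0 were called at 18 or at 24 against 6 months, and the medians of their log2 fold changes were 0.13 and -0.02, against -0.00 and -0.01 over all genes. Col6a1, a chain of the microfibrillar type VI collagen, had 108 ± 2.84 at 18 months against 81.2 ± 16.1 at 6 months, and Col18a1, the source of endostatin, had 735 ± 52.8 at 24 months against 916 ± 142 at 6 months (SD, n = 4 each), and neither passed. Of 23 further matrix proteins 0 rose and 1 fell at 24 months, which was Dpt, the collagen-binding dermatopontin, with 1645 ± 72.4 against 2398 ± 448 (log2 fold change -0.52, adjusted p = 0.0306). Their summed signal over 34 genes on the array was 11664 to 12698 at 24 against 13031 to 14247 at 6 months, without overlap. Of 15 genes of collagen synthesis and crosslinking 0 passed at either age, and P4ha1, a subunit of prolyl 4-hydroxylase, had a log2 fold change of 0.42 at 24 months (adjusted p = 0.0734).

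Of 15 proteases and inhibitors, 3 rose at 24 against 6 months (4.44% of all genes) and 0 fell (2.96%), while 0 were called at 18 months (1.07%). They were Timp3, a matrix-bound metalloproteinase inhibitor, with 548 ± 261 against 165 ± 44.2 (log2 fold change 1.61, adjusted p = 0.0449), the membrane metalloproteinase Mmp15 (0.67, adjusted p = 0.0492) and the aggrecanase Adamts5. Adamts5 was below the floor on all 4 arrays of 6 months and had a mean of 78.7 ± 43.6 at 24 months, so it was at least 2.27-fold higher (adjusted p = 0.0142). Of 19 genes of TGF-beta and PDGF signalling, 1 rose at 24 months, Ltbp4, which tethers latent TGF-beta to the matrix, with 110 ± 15.4 against 71.0 ± 9.70 (0.63, adjusted p = 0.0305). Ccn2, a TGF-beta target, had 143 ± 38.1 at 18 months against 74.8 ± 23.4 at 6 months (0.96, adjusted p = 0.222).

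Among 17 tested markers of stellate cells, Vim and Lhx2 rose in F344 rats at 18 and 24 months, where 0.912% and 4.44% of all genes rose. Vim, the intermediate filament of mesenchymal cells, had 350 ± 70.1 at 18 and 353 ± 50.5 at 24 months against 155 ± 30.9 at 6 months (SD, n = 4 each), with log2 fold changes of 1.17 (adjusted p = 0.00402) and 1.19 (adjusted p = 0.000528). Lhx2, a transcription factor that in mice restrains stellate cell activation, had log2 fold changes of 0.88 (adjusted p = 0.0176) and 0.98 (adjusted p = 0.00205). Colec11, a collectin of resting stellate cells, fell at 24 months with 308 ± 31.1 against 413 ± 34.7 (-0.42, adjusted p = 0.0206). The median over the 17 markers was 0.12 at 18 months and -0.06 at 24 months, against -0.00 and -0.01 over all genes. Their summed signal over 20 genes on the array was 2949 to 3725 at 6, 3113 to 3890 at 11, 3289 to 3861 at 18 and 2757 to 3340 at 24 months.

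Markers of other liver cells moved over the same ages. Over all genes 0.912% were called higher at 18 and 4.44% at 24 against 6 months. Of 12 macrophage markers 3 rose at 18 and 4 at 24 against 6 months, with medians of 0.63 and 0.68, and their summed signal was 7558 to 9654 at 18 and 6969 to 9914 at 24 months against 5064 to 6438 at 6 months. Of 6 lymphocyte markers 0 were called at 18 and 4 rose at 24 months, with summed signals of 341 to 558 and 477 to 553 against 224 to 297 at 6 months. Of 3 portal fibroblast and mesothelial markers 2 rose at 18 months, Msln (at least 1.08 on the log2 scale, since 3 of 4 young rats were below the floor, adjusted p = 0.0173) and Gas6 (0.69, adjusted p = 0.0448), and 0 were called at 24 months. Over the 8 genes of that list on the array the summed signal was 517 to 759 at 18 and 445 to 568 at 24 months against 352 to 418 at 6 months, with no overlap at either age. Prom1, 1 of 3 cholangiocyte markers, rose at both ages (0.80 and 0.86, adjusted p = 0.0176 and 0.00257). The cholangiocyte sum was 225 to 508 at 18 and 315 to 369 at 24 months against 145 to 233 at 6 months, without overlap at 24 months. Of 18 endothelial and 10 hepatocyte markers and 6 cell cycle genes 0 were called at either age. The part of these cells in the collagen, Dcn and Vim values was not tested.

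In Brown Norway controls of 24 against 4 months, 0 genes were called among the further collagens, matrix proteins, synthesis, protease, signalling and stellate lists. Over all genes 0.175% were called higher and 0.0699% lower. Of 12 macrophage markers 2 rose, C1qb with 647 ± 228 against 207 ± 24.2 (log2 fold change 1.60, adjusted p = 0.0239) and Cd163 with 293 ± 142 against 110 ± 13.4 (1.32, adjusted p = 0.0357; SD, n = 3 each). Their summed signal was 6264 to 11181 at 24 against 4244 to 4785 at 4 months, and its part in the Dcn and Timp1 values was not tested. Jchain of the lymphocyte list also rose (1.43, adjusted p = 0.0146).

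The genes most like the fibrillar collagens differed between the strains. Over the 16 F344 arrays the mean of the standardized log2 signals of Col1a1, Col1a2 and Col3a1 correlated best with Krt8 (Pearson r = 0.93). Krt8 is a keratin of epithelial liver cells. Igfbp7, Tmem123, Pdpn and App came next (0.88 to 0.89), and Pdpn was above the floor on 6 of these 16 arrays. Over the 18 Brown Norway arrays the closest were Col5a2 (0.95) and Fbn1 (0.93), a fibrillar collagen and fibrillin, then Ehd2, Ift172 and Pdlim3 (0.92 to 0.93). These Brown Norway values rest in large part on the 2 muscle-rich arrays. Over the other 16 arrays Col1a1 was above the floor on 3. There r was 0.61 for Col5a2, 0.63 for Fbn1, 0.41 for Ehd2, 0.12 for Ift172 and 0.07 for Pdlim3. Ehd2 and Ift172 were above the floor on 3 of all 18 arrays and on 1 of those 16. Pdlim3 was above it on 5 and 3, so the values of these genes carry little information. Among the members, Lum had r = 0.90 over all 18 Brown Norway arrays and -0.15 over the 16, and it was above the floor on 4 of those 16. Dcn had 0.61 over all 18 and -0.22 over the 16, Col4a5 0.83 and 0.57, and Sparc 0.80 and 0.44. In F344 rats Timp1 (0.83) and Dcn (0.81) were the members closest to the fibrillar collagens. Col4a5 had r = -0.22 in F344 rats. The mean of Col4a1 and Col4a2 was most like Zyx and Tagln2 (0.84 each), Sdc4, Ubl5 and Ralgdsl2 (0.82 each) in F344 rats, and Flii, Prtfdc1 and Serpine2 (0.75 each), Fbxw4 and Cst3 (0.73 each) in Brown Norway rats, where these 5 had 0.68 to 0.73 over the 16 arrays. In F344 rats the mean of Col4a1 and Col4a2 holds 2 low values. They are 35.8 for Col4a1 in rat 1 of 11 months (GAPDH ratio 7.33) and 32.5 for Col4a2 in rat 2 of 6 months. The F344 correlations are given only with these arrays included. All correlations here are descriptions over arrays, given without a test.

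For 4 genes a second probe set was read in F344 rats. That of Col1a1 was above the floor on 3 of the 16 arrays, so it carries no order. The second Col1a2 probe set had 44.8 ± 15.5 at 18 months against 30.2 ± 6.83 at 6 months (SD, n = 4 each), with 2 of 4 rats of 6 months above the floor. The second Col4a1 probe set had 133 ± 31.1 at 18 months against 89.5 ± 27.4 at 6 months, and the second Sparc probe set 194 ± 15.5 against 165 ± 21.9.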

How the data were processed

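Liver RNA of 34 male rats was extracted with TriReagent and a column cleanup and hybridised to Affymetrix Rat 230 2.0 arrays, per the labels' protocols. The values deposited by the authors are linear intensity values per probe set, 24946 in the table, and MAS5 and RMA appear as tools in the submitters' processing notes, with no statement of which step either served. Per-sample columns not used here numbered 0.

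Within each strain a gene was represented by its probe set of highest mean signal. Signals under 32 were set to 32 and log2 was taken, which makes folds of low genes too small. Testing was limited to genes that exceeded it on 3 or more arrays in Brown Norway and 4 or more in F344 rats, and used group means and moderated variances in limma (version 3.58.1, R 4.3.3) and Benjamini-Hochberg adjustment over all genes of the strain. A gene was called at an adjusted p under 0.05. Adjusted p-values throughout come from limma. The strains were never set against each other in level, since their medians differ, and their age effects were compared from the separate estimates. Lists of skeletal and smooth muscle genes were added after the arrays had been seen. The method was tested on simulated data. Each array is a separate animal, and the number of arrays limits the precision.

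The 10 members, 13 other gene lists and the filter were chosen with earlier results of these data known. All members are named, and of each list at most 4 genes of smallest p per comparison. Genes similar in pattern were the 5 of highest Pearson correlation per strain and score, and the genes of highest excess on single arrays were picked after their values were seen. A gene name comes from the array annotation. Alternatives changed the probe set rule, the scaling, the floor, the filter, the variance model, the array weights, the GAPDH covariate and the arrays included.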

Additional observations from a re-analysis of the deposited data

Results flagged for a closer look

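Dixon's test at the 95% level was applied to the 4 values of each of the 10 genes at each F344 age, and chance marks about 1 in 20 such groups. It marked 4 of 40. Col4a1 was 35.8 in rat 1 of 11 months against 112 to 127 in the others, a gap of 0.83 of the group's range, and that array had the highest GAPDH ratio, 7.33. Dcn was 84.7 in rat 4 of 18 months against 204 to 226 (0.845), on the array with a GAPDH ratio of 5.31 and high skeletal muscle genes. Col4a2 was 32.5 in rat 2 of 6 months against 65.9 to 68.4 (0.93), and the GAPDH ratio of that array was 1.66. Col4a1 was 132 in rat 1 of 24 months against 122 to 124 (0.838), a small difference in a tight group. The Brown Norway groups hold 3 rats each and were not tested in this way.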

How the results depend on the processing

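Of 412 counts of called genes under alternatives, 389 were equal to or within 1.5 times the reported count and 23 were not. Most reported counts were 0, and a count that stayed at 0 was taken as equal. Of 3714 values of single genes 0 reversed among those called, with 270 changes of sign among those not called. A reversal needed a call in the reported or the alternative setting, and few values were called. These totals are thus no measure of robustness. At 24 against 6 months in F344 rats the count of 2 became 0 with the higher floor of 4 times the usual one, 1 without the filter and 1 with only genes above the median signal. Col4a5 was not tested with that floor or above the median, since its signal is too low. For the same reason the count of 1 at 24 against 11 and at 24 against 18 months became 0 in these settings. With array weights the count became 5 at 18 against 6 months, 1 at 18 against 11 months and 3 at 24 against 18 months. In toluene rats of 24 against 4 months it became 1. With these weights 428, 254 and 632 of 9210 genes were called in the F344 comparisons and 158 of 8586 in the toluene rats. In the reported fit 99, 27, 164 and 23 were called. The count at 18 against 6 months became 1 with the GAPDH covariate and 1 without the 5 arrays of high ratio. Over all genes 191 of 9210 and 55 of 8942 were called in these settings. In Brown Norway controls of 24 against 4 months the count of 0 became 1, Col4a5, without the 2 muscle-rich arrays. It also became 1 with control and toluene rats together and 1 with both changes. All of these settings were added after seeing the data. Over all genes 19 of 8509, 70 of 8586 and 41 of 8509 were called in them, against 21 of 8586 as reported. Leaving out each animal in turn gave 0 to 2 at 18 against 6 months, 0 to 1 at 18 against 11, 1 to 2 at 24 against 6, 1 to 1 at 24 against 11, 1 to 2 at 24 against 18 months, 0 to 1 for the difference between strains and 0 to 0 for all others. The single animals behind these were rat 4 of 18 months at 18 against 6 and 11 months, rat 1 of 24 and rat 3 of 6 months at 24 against 6 months, and rat 3 of 24 months at 24 against 18 months, where Sparc was added. Dcn at 24 against 6 months was called in 17 of 21 alternatives, with adjusted p-values of 0.00139 to 0.112. Except for the arrays that were left out or weighted, the cause of these shifts was not tested. No paired analysis was possible because the labels give the groups no shared replicate numbers. Low signals limit what can be said of Lum and Col1a1, and groups of 3 or 4 animals limit all values.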
